A study of Homo sapiens with 2 samples.

Results

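The genes described here encode splicing factors and proteins of the small nuclear ribonucleoproteins (snRNPs). They were taken from the platform annotation as probe sets with 1 gene symbol that starts with SRSF, HNRNP, SNRP, SF3A, SF3B, PRPF or U2AF, or that is LSM plus a number with nothing after it. This gave 138 of the 22283 probe sets, for 67 of the 11963 genes that have a probe set of their own. L-428, an established Hodgkin's lymphoma (HL) cell line, was transfected either with pcDNA6.2-GW/EmGFP-miR-DUSP5, which expresses an artificial microRNA against the ERK phosphatase DUSP5, or, as control, with pcDNA6.2-GW/EmGFP-miR-neg. The paper describes the control vector as empty, so whether it expressed any microRNA is not clear from its name. RNA of each population was hybridised to 1 Affymetrix HG_U133A microarray. Both vectors encode the green fluorescent protein EmGFP, and whether transfected cells were enriched is not given in the sources used here. The values are MAS5 signal intensities in arbitrary units, which the authors scaled on each array to a target of 500.

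Splicing removes introns from precursor mRNA. The snRNPs recognise the splice sites and the branch point, and each of them is built around a ring of Sm proteins, or of LSM proteins in the case of U6. SR proteins and hnRNP proteins bind exons and introns and favour or block the use of nearby sites, and many of them control the splicing of their own transcripts.

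Ratios of knock-down over control are given on the log2 scale, and a gene was represented by its probe set with the highest mean of both signals. A gene was counted as measured if this mean was at least 200. Of the 67 genes, 65 were measured. The remaining 2 were the pseudogene HNRNPA3P1 (signal 42.2 in control cells and 70.1 after knock-down) and HNRNPUL2 (175 and 213). With 1 array per condition no test is possible and no p-value is given. As error, the standard deviation (SD) was taken between those probe sets that measure a common gene. It was 0.41 on the log2 scale at mean signals of 200 to 500, 0.36 from 500 to 1000, 0.30 from 1000 to 3000 and 0.26 above 3000, and it does not include the spread between cultures. A ratio compares shares of the labelled RNA, so that fewer cells with a transcript and less of it per cell cannot be told apart. DUSP5 itself had a signal of 628 on the control array and 368 on the other, or 58.6% of control (log2 ratio -0.77, SD 0.41). All 6 listed HL markers were measured, of which CD30 (TNFRSF8, 1724 and 3618) and CCL17 (3022 and 6019) were at least 1.5-fold higher. CD15 (FUT4) was lower at its brightest probe set (756 and 317) but not at its second (223 and 284, log2 ratio 0.35). None of 5 B cell, 4 T cell and 3 myeloid markers reached a mean signal of 200. Their summed signals were 404 and 492, 186 and 381, and 158 and 277 in control and knock-down cells. Of 3 fibroblast markers, COL1A1 (213 and 221) and DCN (191 and 268) did, each only at its brightest probe set. These probe sets are of type _x_at, which can match several transcripts.

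More splicing genes had higher than lower signals after knock-down. Of the 65 measured genes, 46 had a ratio above 0 and 19 a ratio below 0, with a median log2 ratio of 0.25, against 0.01 for all 6301 measured genes. At least 1.5-fold higher were 16 members (24.6%), whereas 15.6% of all measured genes were that much higher. At least 1.5-fold lower were 5 members (7.69%), against 19.0% of all measured genes. The members have bright probe sets, and the brightest genes as a whole were more often higher than lower. At a mean signal of at least 1000, 15 of 55 members (27.3%) were higher and 3 (5.45%) lower, against 17.6% and 17.1% of 2355 genes. At a mean of at least 3000, 9 of 22 members (40.9%) were higher and 1 (4.55%) was lower, against 24.1% and 8.85% of 667 genes. Ratios exceeded 1 SD between probe sets in 28 members above 0 (43.1%, against 26.8% of all measured genes) and in 11 members below 0 (16.9%, against 28.9%). The members nearest to the 1.5-fold limit (0.585 on the log2 scale) were HNRNPAB and LSM3 inside it, both at 0.60, and HNRNPUL1 (0.55) and HNRNPH1 (-0.52) outside.

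**Figure D1:**
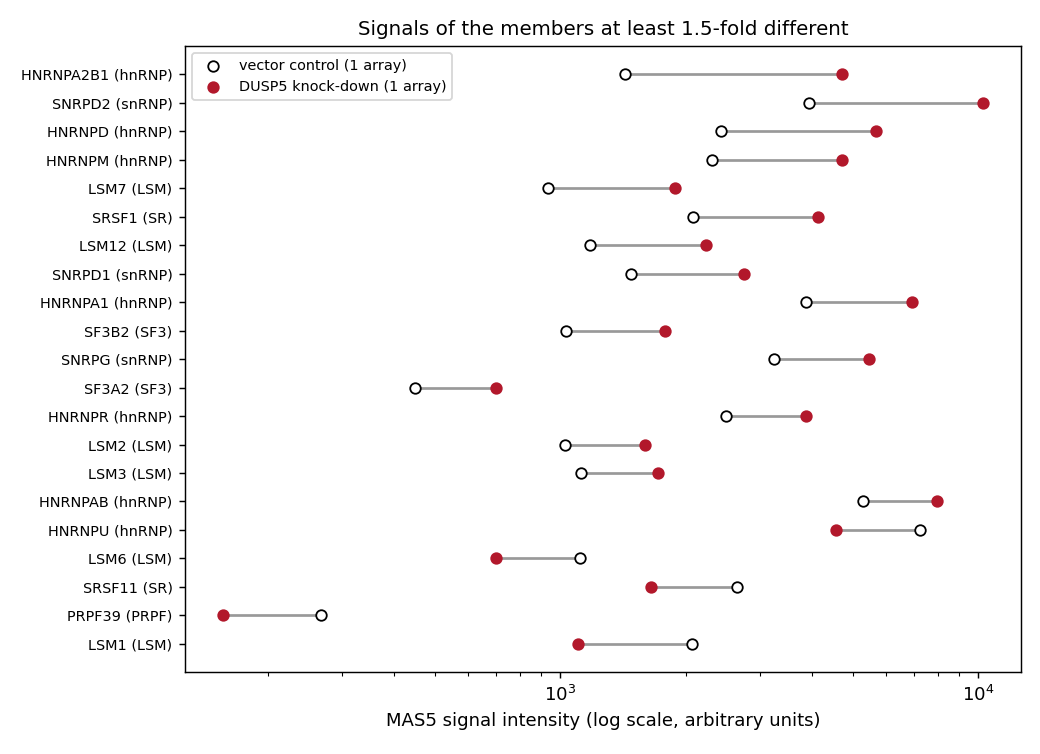
MAS5 signal intensity (log axis, arbitrary units) of the 21 members at least 1.5-fold different, at the brightest probe set, on the control array (open) and the knock-down array (filled), ordered by ratio with the group in brackets. The 16 higher genes are led by HNRNPA2B1 (1424 and 4724) and SNRPD2 (3941 and 10235), and the 5 lower genes end with LSM1 (2067 and 1100).

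The groups differed in their medians. The hnRNP genes had the highest median log2 ratio (0.48), followed by the SF3 genes (0.32) and the snRNP genes (0.30). SR genes and PRPF genes both had a median of 0.10 and LSM genes one of 0.07, whereas the 2 U2AF genes had a median of -0.25. This order depended on the processing. The snRNP median was above that of SF3 with quantile normalization (0.31 and 0.30) and when all probe sets of a gene were averaged (0.34 and 0.32), and in the latter the SR median was -0.31. Without the probe set types _s_at and _x_at the LSM median (0.34) was above those of snRNP (0.30) and SF3 (0.24) and next to that of hnRNP (0.35). The groups also differed in brightness, with median mean signals from 3180 (hnRNP) to 791 (PRPF). Over all measured genes the median ratio was 0.01, but it was 0.21 at a mean signal of at least 3000. With a lowess fit of ratio on signal subtracted, the hnRNP median was 0.37 and the PRPF median 0.14. The SF3 and PRPF genes were the most uniform of the groups with more than 2 genes, with SDs over genes of 0.31 and 0.36. None of these differences could be tested with 1 array per condition.

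**Figure D2:**
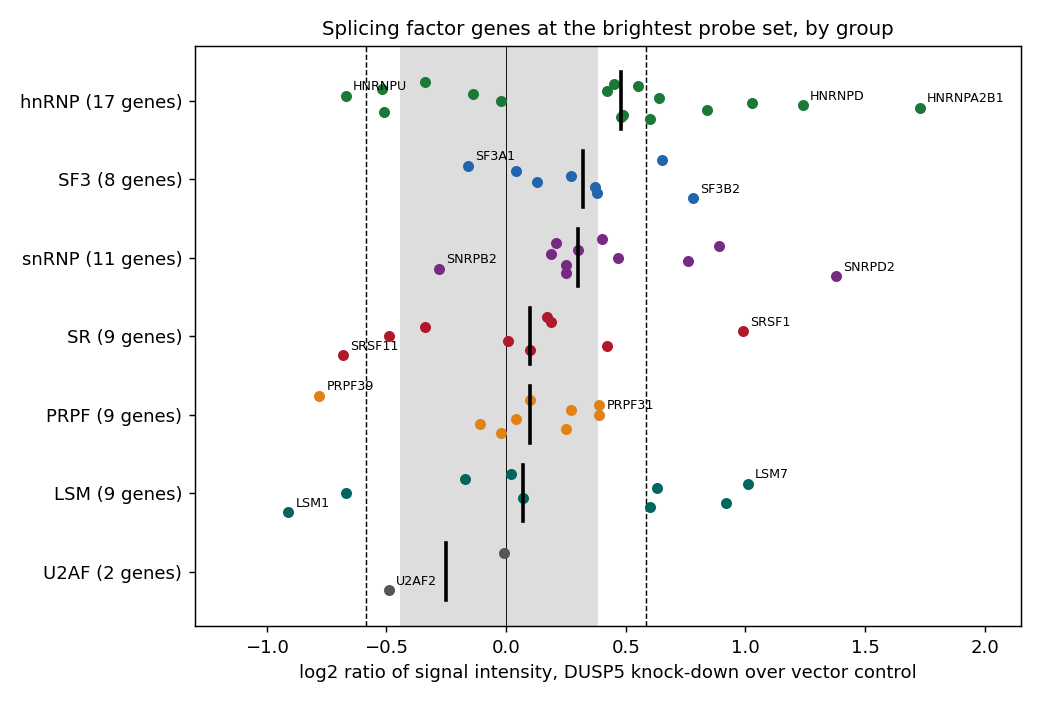
The 65 measured genes by group, placed by their log2 ratio of knock-down over control. Points are genes, black bars are group medians, the grey band holds the middle part of all 6301 measured genes (quartiles -0.44 and 0.38), dashed lines stand at 1.5-fold and vertical offsets have no meaning; the hnRNP median of 0.48 lies to the right of the band, and LSM genes reach from -0.91 to 1.01.

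The hnRNP proteins coat nascent transcripts, and of their 17 measured genes 6 were at least 1.5-fold higher, 1 was lower and 10 lay between. The shares were 35.3% higher and 5.88% lower, against 15.6% and 19.0% of all measured genes. However, the hnRNP genes are bright, with a median mean signal of 3180 against 708 for all measured genes. Of the 667 measured genes whose mean reached 3000, 24.1% were higher and 8.85% lower, which is nearer to the hnRNP shares. HNRNPA2B1, whose product binds RNA in the nucleus and guides mRNA transport, had a signal of 1424 in control cells and 4724 after knock-down, a log2 ratio of 1.73 (SD 0.26). This was rank 26 from the top among all 6301 measured genes and the highest ratio of all members. It rests on 1 probe set. HNRNPD, also known as AUF1, which binds AU-rich elements and promotes mRNA decay, gave 2419 and 5695 (1.24, SD 0.26). Its other 3 measured probe sets had ratios of 1.02, 0.98 and 0.29, so that all went the same way but by different amounts. HNRNPM, which regulates alternative exons, gave 2300 and 4711 (1.03, SD 0.26). HNRNPA1, the classical antagonist of SR proteins at splice sites, gave 3864 and 6935 (0.84), with 0.67 and 0.66 at its other probe sets. HNRNPR, a relative of SYNCRIP, had ratios of 0.64 and 0.96, and HNRNPAB one of 0.60.

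The opposite end of the group was held by HNRNPU, HNRNPH1, HNRNPH3 and HNRNPC. HNRNPU, a large nuclear matrix protein, had a signal of 7253 in control cells and 4574 after knock-down at its brightest probe set (-0.67, SD 0.26). Its other probe sets gave 0.10 and 0.08, so its place among the lower genes depends on 1 probe set of 3. The G-run binding proteins HNRNPH1 (4451 and 3109, ratio -0.52) and HNRNPH3 (2400 and 1680, ratio -0.51) were lower at every measured probe set, from -0.52 to -0.14 for HNRNPH1 and from -0.78 to -0.28 for HNRNPH3. Their relative HNRNPF went the other way (1715 and 2341, ratio 0.45). HNRNPC, which binds U-runs and keeps cryptic exons out, was also below 0 at all 4 probe sets, from -0.80 to -0.15. HNRNPL (0.42), HNRNPK (0.48), HNRNPA0 (0.49) and HNRNPUL1 (0.55) lay above 0 at every measured probe set, each beyond 1 SD at its brightest. HNRNPDL, which in the annotation of assembly GRCh38.p14 is the next protein-coding gene to HNRNPD, gave -0.14 at its brightest probe set and 0.72, 0.65 and 0.14 at the others. HNRNPA3 gave -0.02 at the brightest of 3 probe sets (898 and 888), whereas signals at the others were 570 and 1139, and 364 and 1060 (ratio 1.54).

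The promoters of the members are shown for the 2 highest and the 2 lowest genes by ratio among those with 1 start site in the promoter table used here, to set genes from both ends of the ratios side by side. HNRNPU is among them by its brightest probe set only, since its other probe sets gave 0.10 and 0.08. Each sequence holds the 250 bases before the start site of the RefSeq annotation (GRCh38.p14), read 5′ to 3′ on the strand of the gene. Capitals mark matches, on either strand, to CCGGAAG (a core bound by ETS factors, several of which are ERK substrates), CACGTG (the E-box bound by MYC), TGANTCA (bound by AP-1) and CCAAT. HNRNPA2B1 (ratio 1.73) lies on the minus strand at chr7:26200747-26200996, HNRNPD (1.24) on the minus strand at chr4:82373992-82374241, HNRNPU (-0.67) on the minus strand at chr1:244864544-244864793 and SRSF5 (-0.49) on the plus strand at chr14:69766892-69767141.
HNRNPA2B1: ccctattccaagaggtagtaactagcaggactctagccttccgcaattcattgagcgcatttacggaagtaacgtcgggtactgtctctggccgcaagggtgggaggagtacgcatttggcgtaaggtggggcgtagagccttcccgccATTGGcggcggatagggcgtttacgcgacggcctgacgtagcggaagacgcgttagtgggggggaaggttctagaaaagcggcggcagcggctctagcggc
HNRNPD: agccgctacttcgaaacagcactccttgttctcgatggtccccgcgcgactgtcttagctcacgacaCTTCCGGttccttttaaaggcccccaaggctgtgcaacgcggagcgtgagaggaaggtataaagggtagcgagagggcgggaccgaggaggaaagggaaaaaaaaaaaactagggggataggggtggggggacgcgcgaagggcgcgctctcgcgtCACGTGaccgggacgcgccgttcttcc
HNRNPU: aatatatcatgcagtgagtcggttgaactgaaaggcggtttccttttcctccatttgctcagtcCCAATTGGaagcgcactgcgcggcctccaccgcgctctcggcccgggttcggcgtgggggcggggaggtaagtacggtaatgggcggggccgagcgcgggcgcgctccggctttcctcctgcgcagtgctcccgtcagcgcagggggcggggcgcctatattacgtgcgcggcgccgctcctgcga
SRSF5: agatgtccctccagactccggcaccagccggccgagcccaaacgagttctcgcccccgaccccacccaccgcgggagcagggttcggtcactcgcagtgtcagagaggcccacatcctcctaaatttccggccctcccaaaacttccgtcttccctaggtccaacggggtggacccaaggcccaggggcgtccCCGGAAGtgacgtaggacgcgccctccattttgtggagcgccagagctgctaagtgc

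HNRNPD held an ETS match and an E-box match, SRSF5 held an ETS match, and in the 250 bases shown HNRNPA2B1 and HNRNPU held CCAAT matches only. Over the windows of 300 bases in the table (250 before and 50 after a start site), 58 of the 65 measured members had 80 windows, some of which overlap, so that matches were counted by gene. CCGGAAG was found in 21 of the 58 genes (36.2%), against 24.7% of 5334 measured genes and 12.2% of all 27305 genes in the table. The shares for CACGTG were 12.1%, 13.7% and 8.77%, those for TGANTCA 6.90%, 6.99% and 9.37%, and those for CCAAT 48.3%, 45.8% and 39.7%. Of the members at least 1.5-fold higher, 5 of 14 (35.7%) held CCGGAAG, against 16 of 42 (38.1%) of those between. For CCAAT the counts were 4 of 14 (28.6%) and 23 of 42 (54.8%), for TGANTCA 2 of 14 and 2 of 42, and for CACGTG 2 of 14 and 5 of 42. Only 2 lower members had a window, and 1 of them held CCAAT and none the other motifs. A match describes letters in a window and is not evidence of binding.

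The Sm proteins, which form the ring around the U1, U2, U4 and U5 snRNAs, were all above 0. The 7 ring genes had a median log2 ratio of 0.47, and 3 of them were at least 1.5-fold higher, against 15.6% of all measured genes. SNRPD2 gave signals of 3941 (control) and 10235 (knock-down) (1.38, SD 0.26), rank 89 from the top among all measured genes. Its ring partner SNRPD1 gave 1477 and 2746 (0.89, SD 0.30), with 0.93 at its second probe set. SNRPG gave 3237 and 5469 (0.76, SD 0.26). The other subunits were higher by smaller amounts, with SNRPE at 0.47 (0.22 at its second probe set), SNRPF at 0.25, SNRPB at 0.21 (second probe set 0.48) and SNRPD3 at 0.19. Of these, only SNRPE exceeded 1 SD between probe sets, and SNRPB was at 0.04 with quantile normalization. SNRPD2, SNRPG, SNRPF and SNRPD3 each had 1 probe set. None of the 4 genes of snRNP-specific proteins differed by 1.5-fold, beside 15.6% of all measured genes that were higher and 19.0% that were lower. With 4 genes this cannot be told apart from the array as a whole. SNRPA (0.30) and SNRPC (0.40) of the U1 snRNP were above 0, and of the U2 snRNP proteins SNRPA1 was above 0 (0.25, and 0.31 and -0.03 at the remaining probe sets) and SNRPB2 below (2757 and 2270, ratio -0.28, SD 0.30). SNRPB2 was the only one of the 11 snRNP genes with a ratio below 0 at the brightest probe set.

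Of the 9 LSM genes 4 (44.4%) were at least 1.5-fold higher, 2 (22.2%) lower and 3 between, with an SD over genes of 0.68 (0.66 for hnRNP genes, whose range was wider). Among all measured genes 15.6% were higher and 19.0% lower, the latter near the share of lower LSM genes. LSM2 to LSM7 are shared by a nuclear ring with LSM8, which binds U6 snRNA, and a cytoplasmic ring with LSM1, which promotes decapping and decay of mRNA. The subunit that sets the cytoplasmic ring apart, LSM1, gave signals of 2067 (control) and 1100 (knock-down) (-0.91, SD 0.30), the lowest ratio of all members. The nuclear counterpart LSM8 gave 2452 and 2581 (0.07). The 6 shared subunits did not move together: LSM7 (936 and 1885, ratio 1.01), LSM2 (0.63) and LSM3 (0.60) were higher, LSM6 was lower (1117 and 701, ratio -0.67, SD 0.36), and LSM4 (0.02) and LSM5 (-0.17, with -0.69 at its second measured probe set) lay between. LSM12, which belongs to neither ring, was higher at both probe sets (0.92 and 0.74). LSM1, LSM2, LSM3, LSM6, LSM7 and LSM8 each had 1 probe set, so that agreement within these genes could not be examined.

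**Figure D3:**
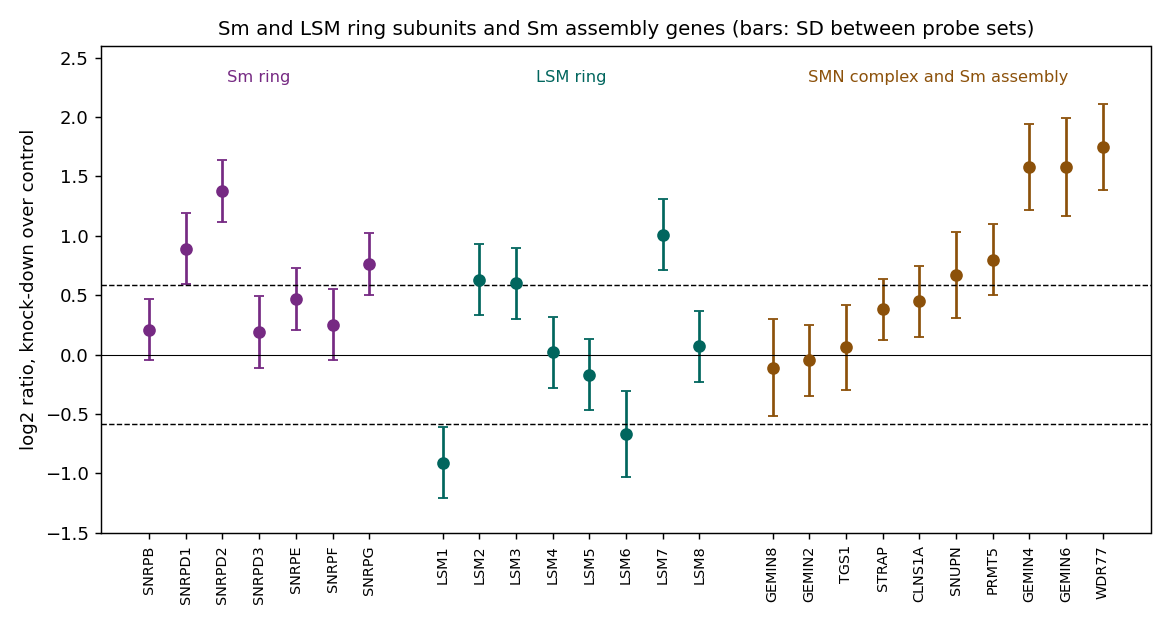
Log2 ratio (knock-down over control) of the subunits of the Sm ring and of the LSM rings and of the measured genes of the SMN complex and Sm protein assembly, at the brightest probe set. Bars are the SD between probe sets of a gene at similar signal and dashed lines mark a 1.5-fold difference; all 7 Sm genes lie above 0, whereas the LSM genes run from LSM1 (-0.91) to LSM7 (1.01).

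SR genes lay on both sides of 0, and the SD between their probe sets was the highest of the groups. SRSF1, the founding member that activates splice sites through exonic enhancers, was higher at all 3 measured probe sets. Its signals were 2081 in control cells and 4130 after knock-down at the brightest (0.99, SD 0.26), and the other ratios were 1.33 and 1.74. SRSF3, the smallest SR protein, was above 0 at 3 probe sets, from 0.31 to 0.51. SRSF11 gave 2645 and 1651 (-0.68, SD 0.30), SRSF5 gave 5130 and 3644 (-0.49, SD 0.26, with -0.86 at its second measured probe set), and SRSF8 had ratios of -0.34 and -0.36. SRSF4 (0.19) stayed within 1 SD. SRSF7 had ratios of 0.17, -1.09 and -0.03, where the low one came from signals of 2788 and 1305. SRSF10, which represses splicing when dephosphorylated, had ratios of 0.10, -0.41, 0.10 and -1.03. SRSF6 gave 0.01 at the brightest probe set and 1.14 at the other (231 and 510). For SRSF6, SRSF7 and SRSF10 the deposited values therefore give no single ratio for the gene. With the mean of all measured probe sets the median of the SR group was -0.31 in place of 0.10. When the types _s_at and _x_at were left out it was -1.03, over the 3 genes SRSF4, SRSF7 and SRSF10.

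SF3A and SF3B make up the part of the U2 snRNP that holds the branch point. Of the 8 SF3 genes, 2 were at least 1.5-fold higher and none was that much lower, beside 15.6% and 19.0% of all measured genes. With 8 genes these counts cannot be told apart from the array as a whole. SF3B2 gave signals of 1034 (control) and 1778 (knock-down) (0.78, SD 0.30), and SF3A2 gave 448 and 700 (0.65, SD 0.36) with 0.41 at its second probe set. SF3B4 (0.38) and SF3B5 (0.37) also exceeded 1 SD, while SF3A3 (0.27) did not. SF3B1, which contacts the branch point region and is recurrently mutated in blood cancers, was close to 0 at its brightest probe set (6059 and 6239, ratio 0.04) and ranged down to -0.34 at the other 3. SF3A1 was below 0 at all 3 probe sets, from -0.32 to -0.01. SF3B3 gave 0.13 at its brightest probe set (2013 and 2206) and -0.74 at the other (831 and 498).

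Of the PRPF genes, most of which encode proteins of the U4/U6.U5 tri-snRNP and of the active spliceosome, none of 9 was at least 1.5-fold higher, against 15.6% of all measured genes. PRPF39, a U1-associated protein, gave signals of 268 (control) and 156 (knock-down) (-0.78, SD 0.41), at the edge of the measured range. PRPF8, the scaffold of the catalytic centre, had a ratio of 0.25, PRPF3 one of 0.27 and PRPF31 one of 0.39 (0.04 at its second measured probe set). PRPF4 was at 0.39 and 0.70, and PRPF6, which bridges U5 and U4/U6, at 0.04 and 0.03. The ratio of PRPF19, the ubiquitin ligase of the complex named after it, was -0.02, that of PRPF18 0.10 and that of PRPF38B -0.11. The subunits of U2AF, which binds the 3′ splice site, were U2AF1 at -0.01 (3655 and 3635) and U2AF2 at -0.49 (1299 and 924, SD 0.30), with -0.00 at the second measured probe set of U2AF2.

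Agreement between probe sets was examined for the 35 members with several measured probe sets. All measured probe sets lay on the same side of 0 in 27 genes and on both sides in 8. Of 83 pairs of probe sets, 63 (75.9%) agreed in sign, against 73.0% of 3905 pairs over all genes, and the SD between probe sets was 0.37 in members and 0.38 in all genes. At signals of at least 1000 in both probe sets, 75.6% of 45 member pairs and 79.0% of 1031 pairs over all genes agreed in sign, with SDs of 0.32 and 0.29. Pairs that differed by more than 1 on the log2 scale numbered 7, of which 5 were in the SR group and 2 in the hnRNP group. The SD between probe sets was 0.49 for SR genes, 0.37 for hnRNP genes, 0.25 for SF3 genes and 0.17 for snRNP genes. Genes whose probe sets lay on both sides of 0 with a gap of more than 1 were SRSF7, SRSF10 and HNRNPA3. Of the 21 genes at least 1.5-fold different, 8 had a second measured probe set, and in 7 of these all measured probe sets lay on one side, HNRNPU being the exception. In 5 genes every measured probe set was at least 1.5-fold higher, namely SRSF1, HNRNPA1, HNRNPR, SNRPD1 and LSM12. Within the 15 genes that had probe sets of type _x_at, which can match several transcripts, beside other types, the _x_at ratio was lower than the rest in 7 and higher in 8.

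**Figure D4:**
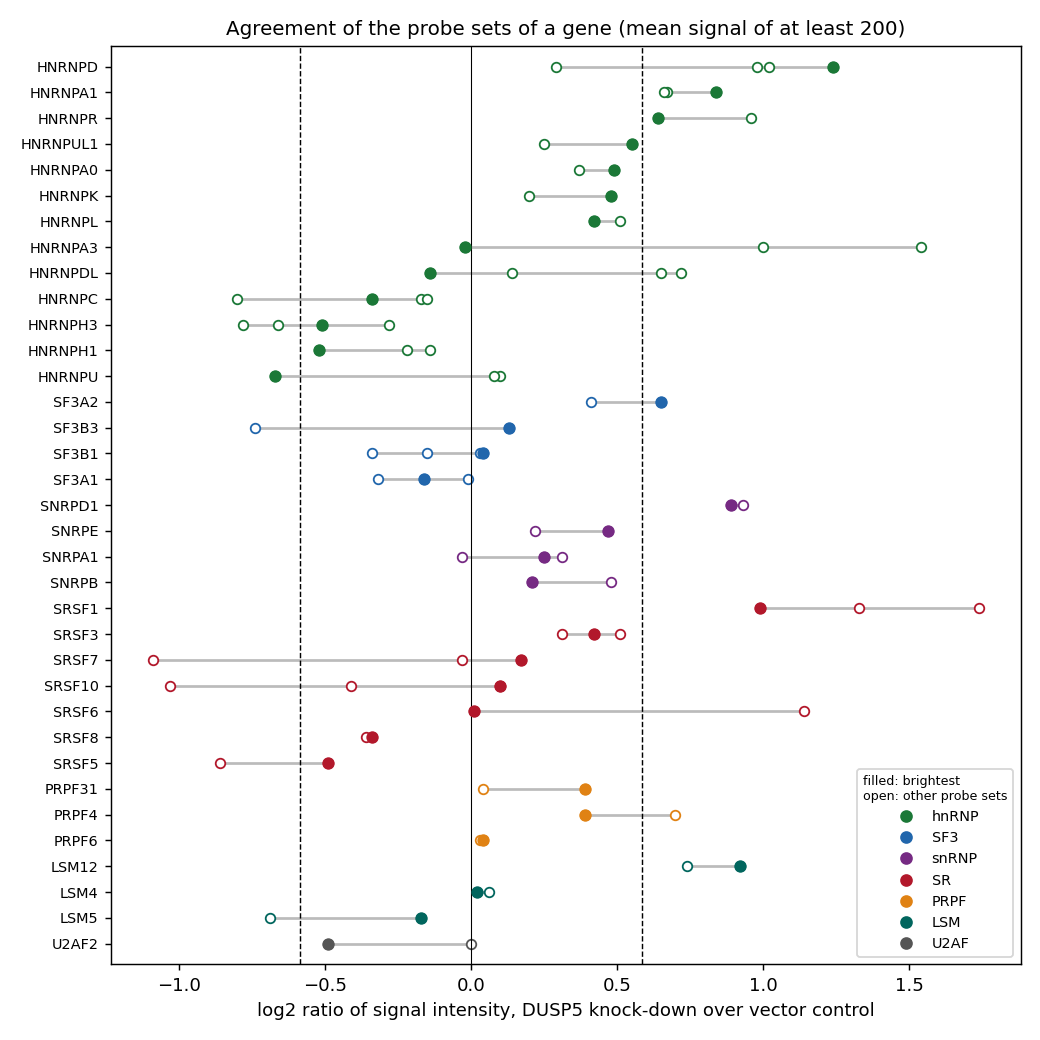
Log2 ratios (knock-down over control) of all measured probe sets of the 35 member genes with several of them. Filled points are the brightest probe set, open points the others, colours the groups and dashed lines a 1.5-fold difference; the widest gaps are those of HNRNPA3 (-0.02 to 1.54), SRSF7 (-1.09 to 0.17), SRSF6 (0.01 to 1.14) and SRSF10 (-1.03 to 0.10).

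Other genes of the splicing machinery, outside the symbols that define the members, were listed by role. Of 97 measured genes on these lists 18 (18.6%) were at least 1.5-fold higher and 10 (10.3%) lower, with a median log2 ratio of 0.12, against 15.6% and 19.0% of all measured genes. The SMN complex, which loads Sm proteins onto snRNAs, and the enzymes that methylate Sm proteins before loading stood highest, with a median of 0.56 and 5 of 10 measured genes higher and none lower. WDR77, the partner of the methyltransferase PRMT5, gave signals of 313 (control) and 1054 (knock-down) (1.75, SD 0.36), although its second probe set gave 0.38. GEMIN4 had ratios of 1.58 and 2.14 (462 and 1382 at the brightest), GEMIN6 had 1.58 (239 and 714), PRMT5 had 0.80 and SNUPN, which imports assembled snRNPs into the nucleus, had 0.67. GEMIN8 (-0.11) was the lowest of this list. Proteins related to SR proteins and the kinases that phosphorylate them had a median of -0.23, with none of 18 higher and 3 (16.7%) lower, the latter near the 19.0% of all measured genes. Lowest among them was SREK1, an SR-related splicing regulator (2432 and 744, ratio -1.71, SD 0.30), followed by the SR protein kinases CLK1 (1117 and 605, ratio -0.88) and SRPK2 (-0.68, with 0.07 and 0.11 at its other measured probe sets), while ACIN1 (0.13) was highest.

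The remaining lists were mixed, and their counts stand beside 15.6% of all measured genes at least 1.5-fold higher and 19.0% lower. Of 19 genes on the list of tri-snRNP and further snRNP proteins and helicases, 2 were higher and 1 was lower (median 0.27). TXNL4A (0.64) and SART3 (0.64, but -0.23 and 0.10 at the others of its probe sets) were at the top and SNRNP27 (-0.77, with -0.12 at its second) at the bottom. Among 12 partners of PRP19 and of the U2 snRNP, 3 were higher and 3 lower (median 0.14), from BUD31 (5082 and 2573, ratio -0.98) to RBM22 (0.84). ZRSR2, the U2AF1 relative of the minor spliceosome, had ratios of -0.91 and -1.20. Of 32 further RNA-binding regulators 6 (18.8%, near the share of all measured genes) were higher and 2 (6.25%) lower (median 0.21). They ran from PTBP3 (-1.14, but -0.19 and -0.02 elsewhere) to RBM25 (0.89, with -0.15 to 0.85 at its others). Of 6 measured genes on the list named for the exon junction complex, not all of which encode its subunits, 2 were higher and 1 was lower (median -0.24). The helicase gene DDX39A (0.69) was highest and RBM8A (-1.04, with -0.18 and 0.13 at its other measured probe sets) lowest.

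**Figure D5:**
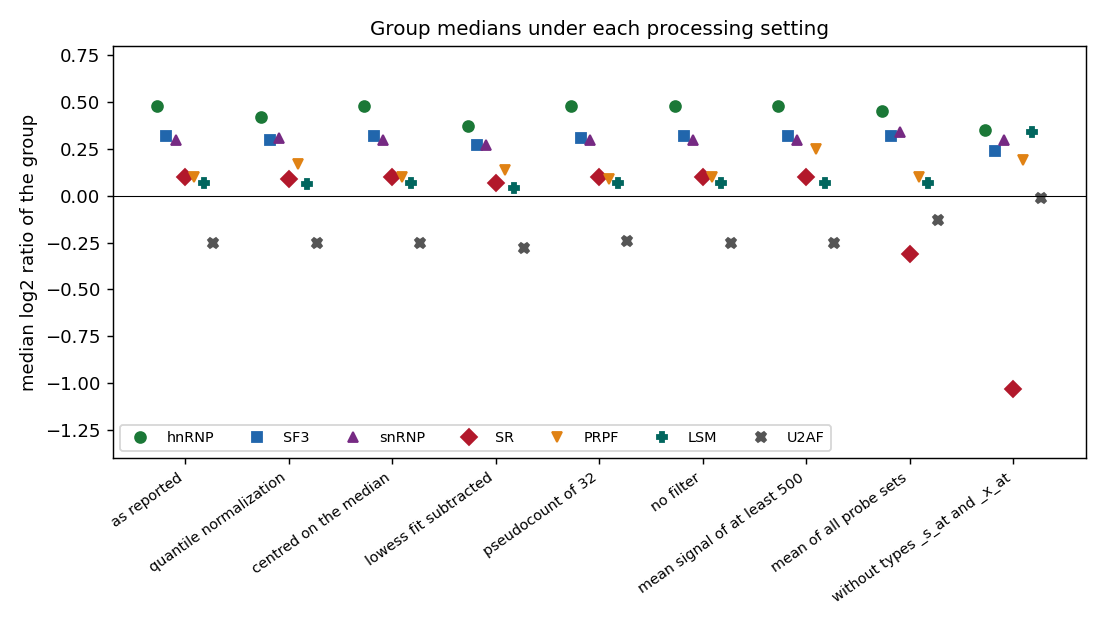
Median log2 ratio of each group as reported and under each alternative setting of the processing. The hnRNP, SF3 and snRNP medians stay between 0.24 and 0.48, whereas the SR median is at -0.31 with the mean of all probe sets and -1.03 without the types _s_at and _x_at, and the LSM median goes from 0.07 to 0.34 in the latter.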

How the data were processed

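The values deposited by the authors for the 2 arrays are signal intensities on a linear scale, which they derived in Expression Console with MAS5 and scaled to a target of 500. Array medians were 161 (control) and 164 (knock-down). Gene names came from the platform annotation of the array; 19065 probe sets had 1 symbol, 1043 several and 2107 none, beside 68 control probe sets. All 67 member genes were found by gene ID in the RefSeq table of GRCh38.p14.

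Log2 ratios were computed as knock-down over control from the values as deposited, and genes were filtered at a mean signal of 200. The SD between probe sets came from pairs of the same gene with both signals in 1 band. The size rule was 1.5-fold. Named are DUSP5, the 3 highest and 3 lowest genes of each group, all genes past this rule and genes whose probe sets disagreed, and for each other list the highest and lowest gene; further genes were chosen after their values were seen. The members, lists and rules were chosen with earlier results of these data known. The arrays' number limits the precision, and with 1 array per condition no test was run.

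Alternatives were quantile normalization, median centring, subtraction of a lowess fit (span 0.3), a pseudocount of 32, other filters and folds, the mean of all probe sets and omission of probe set types. The promoter table used here has no entry for LSM1, LSM6, PRPF3, PRPF39, SF3B3, HNRNPA1 and SNRPD1. The steps were tested on simulated data. Calculations used Python 3.11.15 with pandas 2.3.3 and numpy 2.4.6, the lowess fit statsmodels 0.14.6, and the plots matplotlib 3.10.9.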

Additional observations from a re-analysis of the deposited data

How the results depend on the processing

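Under the alternatives run, the medians of the groups other than SR ranged from 0.35 to 0.48 for hnRNP, 0.24 to 0.32 for SF3, 0.27 to 0.34 for snRNP, 0.04 to 0.34 for LSM (the highest without the types _s_at and _x_at), 0.09 to 0.25 for PRPF, -0.28 to -0.01 for U2AF, and that of all members from 0.21 to 0.27; each kept its sign. The SR median was -0.31 with the mean of all probe sets and -1.03 without the types _s_at and _x_at, which leaves 3 genes. Of the 16 higher members, 14 stayed higher after subtraction of the lowess fit and 15 after quantile normalization, and 8 were higher without the types _s_at and _x_at, where by construction most of the others have no measured probe set. Without these types 5 members were lower, of which 2 were among the lower members as reported, and SF3B3, SRSF10 and SRSF7 were added. The shares of all genes in that setting are not given here. At 2-fold 5 members were higher and 0 lower, and at 3-fold 1 and 0. The shares of all measured genes past these 2 limits are not given here, so these counts cannot be set against the array as a whole. With quantile normalization 8 were lower, and with the lowess fit subtracted also 8, the added genes being HNRNPC, HNRNPH1 and SRSF5 in both. The fit ran from -0.07 to 0.28 over the member genes. Its subtraction took HNRNPC from -0.34 to -0.62, HNRNPH1 from -0.52 to -0.64 and SRSF5 from -0.49 to -0.65. Bright members above 0 also went down, such as SNRPD2 (1.38 to 1.14) and HNRNPAB (0.60 to 0.35). What lies behind this trend with signal was not tested. Of 16 higher and 5 lower members, 12 and 4 were past 1.5-fold in every setting in which they were measured, HNRNPAB, HNRNPD, HNRNPR, SF3A2 and HNRNPU being the exceptions. Adding LSM14A and LSM14B, an alternative chosen after seeing the data, left 16 and 5. No paired analysis was possible because there was 1 array of each kind. Low signal over background limits PRPF39 and the dimmer probe sets most.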

Other observations

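A further 19 probe sets carried a symbol of the same families together with other symbols and were not assigned to a gene. Of 16 with a mean signal of at least 200, 8 were higher by 1.5-fold or more after knock-down and 1 was lower, against 15.9% and 18.8% of all 10184 measured probe sets, with log2 ratios from -0.86 to 2.02 and a median of 0.49. SRSF2, SRSF9, HNRNPH2 and SNRPN have only probe sets of this kind on the array and therefore no value here.

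SMNDC1, which encodes a splicing factor related to SMN and is the next protein-coding gene to DUSP5 in the annotation of GRCh38.p14, was named for this position. Its signal was 2448 in control cells and 1354 after knock-down (log2 ratio -0.85, SD 0.30), or 55.3% of control, beside 58.6% for DUSP5. SMC3, on the other side of DUSP5, had ratios of 0.03, -0.41 and 0.21. Of the genes that adjoin HNRNPA2B1, CBX3 had probe sets at 0.04 and 0.73 and NFE2L3 had 1 at 0.57, against 1.73 for HNRNPA2B1. LRRC40, which adjoins SRSF11, had ratios of -0.63 and -0.08, against -0.68 for SRSF11.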
